A study of Mus musculus with 50 samples.

Results

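Untreated transplant sarcomas were compared with untreated primary sarcomas of the same mouse model, over all expressed genes, with every difference given as transplant minus primary. The libraries were chosen by their labels alone: 4 transplants and 8 primary tumors that received 0 Gy and an isotype control antibody, 12 of the 50 libraries in the series. Both groups are p53/MCA sarcomas of the gastrocnemius muscle in 129/SvJae mice. Primary tumors arose in Trp53 fl/fl mice, 6 to 10 weeks old at induction, after intramuscular injection of Adeno-Cre, an adenovirus that carries Cre recombinase, and of the carcinogen 3-methylcholanthrene (MCA). Each primary tumor was therefore an independent transformation event in the mouse it was taken from. Transplants grew after injection of 50000 cells of line 402230, suspended with Matrigel, into the same muscle of syngeneic mice. All 4 transplants thus come from 1 line made from 1 tumor, and what is particular to that tumor cannot be told apart from what is common to transplantation. Both groups received 200 µg of isotype antibody and were harvested 3 days later. The study used both models to examine responses to radiotherapy and PD-1 blockade, and the comparison asks how the tumors differed without either.

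Transcriptomes of whole sarcomas mix tumor cells with leukocytes, vessels and invaded muscle. Cytotoxic T cells release interferon-γ, which makes neighbouring cells raise antigen presentation, the chemokines Cxcl9 and Cxcl11, immunity-related GTPases and the checkpoint ligand PD-L1 (Cd274). Macrophages usually form the main leukocyte population of such tumors and can express genes of inflammation or of tissue repair. Sarcoma cells themselves keep much of the program of mesenchymal cells, including collagens, contractile proteins, positional transcription factors and imprinted genes, of which only the copy from one parent is normally active.

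Total counts per library ran from 39637928 to 44670951 in transplants and from 37743696 to 49181237 in primary tumors. Trp53, the targeted gene, stood at 26.1, 29.1, 38.4 and 29.8 CPM (counts of a gene per 1e6 counts of the library, after scaling) in transplants 1 to 4, and between 20.2 and 28 CPM in primary tumors with a median of 25. The groups overlapped and did not differ by the test (log2 fold change 0.34, SE 0.21, adjusted p 0.33), and a count of the whole gene does not show which exons were read. Mesenchymal genes were expressed in every tumor, with Pdgfra at 328 CPM or more. Host sex and muscle content differed between libraries. All 4 transplants expressed the Y-linked gene Ddx3y, at 52.6 to 68.2 CPM, and transplant 2 also expressed Xist, at 88.4 CPM, whereas 3 of the 8 primary tumors were male by these genes. Summed CPM of the 24 mature muscle fiber genes ran from 154 to 27072 in transplants and from 106.2 to 8235 in primary tumors, with the least in transplant 1 and the most in transplant 3 among the transplants.

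Line 402230 also gave 2 libraries without replicates, and their labels go against their content. In the library labelled parental tumor, the leukocyte gene Ptprc was at 0.112 CPM, the macrophage gene Csf1r at 0.492, the endothelial gene Cdh5 at 0.223 and the hemoglobin gene Hbb-bs at 0.0447. The library labelled cell line held 81.9, 234, 111.96 and 122.3 CPM of the same genes. The second set of values lies in or near the range of whole tumors and the first does not. Neither library entered the main test, and their levels come from a scaling that included all 50 libraries. An alternative fit counted the library labelled parental tumor among the primary tumors. Because both libraries are of the transplanted line, a call lost in that fit does not show a lack of difference from the other primary tumors.

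Of 19327 genes tested, 1988 (10.3%) differed at an adjusted p under 0.05 (edgeR quasi-likelihood test, Benjamini-Hochberg over all genes), 750 (3.88%) higher and 1238 (6.41%) lower in transplants. The median log2 fold change of all genes was -0.01, and the median of the called genes was 1.61 for those higher and -1.35 for those lower. All 4 transplants lay above all 8 primary tumors in 554 tested genes (2.87%) and below them in 843 (4.36%), together 7.23%. These counts depended on the number of transplants. Without transplant 1, 2, 3 or 4 the test called 1174, 1039, 1414 and 1009 genes, and without any 1 primary tumor it called 1677 to 2248. With the 3 male libraries of each group it called 444, and 421 of these were among the 1988 with the same sign.

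**Figure D1:**
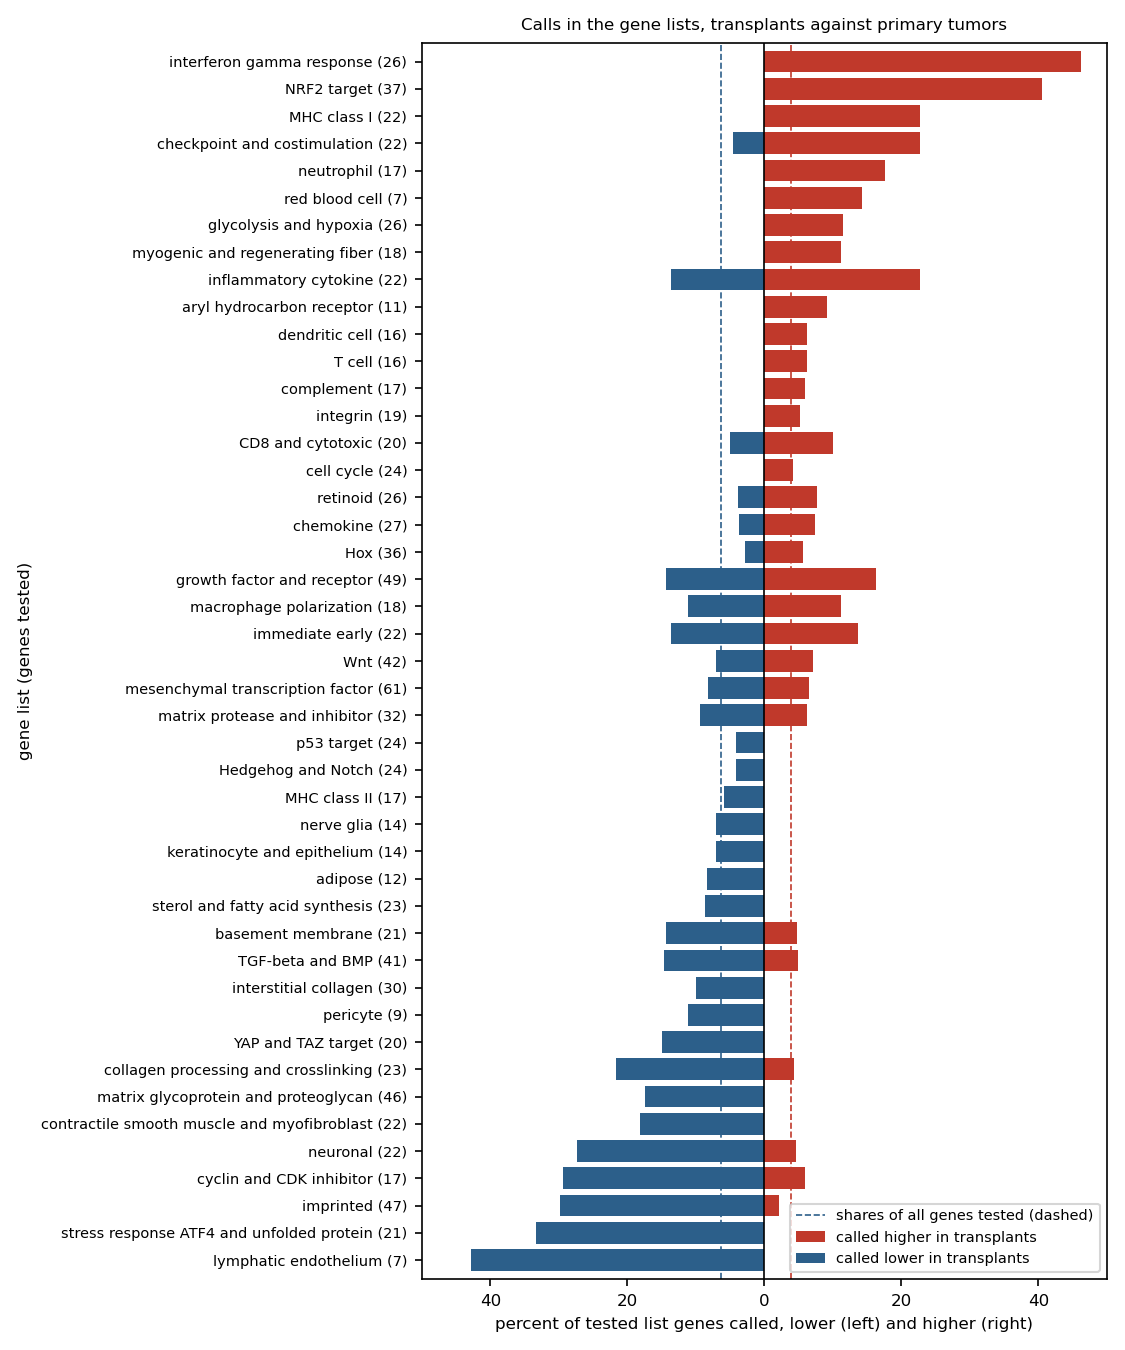
Share of each gene list called higher (red, right) or lower (blue, left) in untreated transplants than in untreated primary tumors, in percent of the list genes tested, for the lists with at least 1 call. Dashed lines mark the shares of all genes tested, 3.88% higher and 6.41% lower. Interferon-γ response and NRF2 target genes lead on the right, and lymphatic, stress response and imprinted genes on the left.

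Genes of the interferon-γ response were the list with the largest share of calls in the higher direction. Of 26 such genes tested, 12 were higher in transplants, none was lower and 14 did not pass, with a median log2 fold change of 1.19 against -0.01 for all genes. The 26 include receptor and kinase genes of the pathway, Ifngr1, Ifngr2, Jak1 and Jak2, none of which was called. Ido1, which degrades tryptophan, stood at 4.20, 3.28, 7.38 and 0.605 CPM in transplants 1 to 4 and at 0.0227 to 0.365 CPM in primary tumors, with a median of 0.0698. Every transplant lay above every primary tumor, although transplant 4 came close (log2 fold change 5.11, SE 0.80, adjusted p 4.59e-05). Irf1, the transcription factor that relays the signal, was at 222.6, 178.2, 281.3 and 124.4 CPM against 56.7 to 124.04 with a median of 87.7, and transplant 4 lay just above the highest primary tumor (log2 fold change 1.23, SE 0.30, adjusted p 0.0052). Cxcl9, which attracts T cells through the receptor Cxcr3, reached 405, 408, 694 and 122.96 CPM in transplants and 15.7 to 132.3 CPM in primary tumors with a median of 34.5. Transplants 1 to 3 exceeded all primary tumors and transplant 4 did not (log2 fold change 2.75, SE 0.64, adjusted p 0.00366). The immunity-related GTPase gene Tgtp1 showed the same order, with 35.1, 31, 81.1 and 8.99 CPM against 1.01 to 11.1 with a median of 2.06 (log2 fold change 3.26, SE 0.62, adjusted p 0.000482). Its near-identical neighbour Tgtp2 was also called, and reads of both may be split between them. The other 7 called genes were Gbp2, Gbp4, Gbp5, Gbp10, Iigp1, Igtp and Cxcl11.

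Transplant 3 was the highest transplant for Ido1, Irf1, Cxcl9 and Tgtp1, and the count of calls depended on it. Without transplant 3, these 4 of the 26 genes were called, and without primary tumor 4, the primary tumor with the most Psmb8, 19 were. With male libraries alone 2 were called, and 1 without both transplant 1 and transplant 3. Type I interferon response genes did not share this direction, since none of the 25 tested was called by edgeR, DESeq2 or limma voom, with 4 at an unadjusted p under 0.05, and their median was -0.42.

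The bases before the start sites of 3 of the called genes are printed because they hold both kinds of interferon motif side by side or the site of the first responder. Capitals mark matches to the interferon-stimulated response element, taken as GAAA repeated after any 2 bases, and to the gamma-activated site, TTCNNNGAA, each searched on both strands in the 250 bases before the start (RefSeq windows, GRCm38.p6). Igtp lies at chr11:58199406-58199555 on the + strand, Tgtp1 at chr11:48992247-48992396 on the - strand and Irf1 at chr11:53769864-53770013 on the + strand.
Igtp: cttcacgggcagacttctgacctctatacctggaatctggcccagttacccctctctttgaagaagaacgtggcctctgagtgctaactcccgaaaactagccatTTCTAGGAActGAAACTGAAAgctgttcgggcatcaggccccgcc
Tgtp1: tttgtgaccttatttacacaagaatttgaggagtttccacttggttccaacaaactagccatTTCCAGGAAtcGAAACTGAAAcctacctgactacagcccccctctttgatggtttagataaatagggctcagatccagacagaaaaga
Irf1: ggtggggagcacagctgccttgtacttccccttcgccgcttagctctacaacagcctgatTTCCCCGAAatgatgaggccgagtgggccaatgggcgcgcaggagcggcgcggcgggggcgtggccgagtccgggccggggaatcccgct
The first motif was present in 11 of the 17 list genes with a window, and in 3.34% of the 13123 tested genes with one. The second was present in 7 of the 17, and in 7.16% of all. Among the 7 called list genes with a window, 5 held the first motif, as did 6 of the 10 that were not called, and 5 of the 7 held the second, against 2 of the 10. The 10 include the receptor and kinase genes Ifngr1, Ifngr2, Jak1 and Jak2, which held neither motif.

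Antigen presentation genes of the MHC class I pathway were partly higher in transplants. Of 22 tested, 5 were called higher and none lower, with a median log2 fold change of 0.69. The 5 were proteasome subunits and activators, Psmb8, Psmb10, Psme1 and Psme2, and the peptide editor Tapbpl. Psmb8 stood at 269, 279, 287 and 175 CPM in transplants and at 60.6 to 282 CPM in primary tumors with a median of 72.4. Primary tumor 4 alone, at 282 CPM, lay within the transplant range (log2 fold change 1.21, SE 0.34, adjusted p 0.0153). Tapbpl was at 46, 53.1, 72.3 and 25.4 CPM against 12.3 to 31.9 with a median of 18.8, and only transplant 4 overlapped (log2 fold change 1.30, SE 0.27, adjusted p 0.00131). The class I heavy chain genes H2-K1 and H2-D1 did not pass, with log2 fold changes of 0.72 and 0.49. Without primary tumor 4, 12 of the 22 genes were called, and without transplant 1 or 2, or primary tumor 1, 3 or 7, 3 were. None was called with male libraries alone or without transplants 1 and 3. For MHC class II, 17 genes were tested, none was called higher by edgeR, and 9 had an unadjusted p under 0.05. Estimates were positive for the antigen-presenting chains and their regulator Ciita, such as 1.54 for H2-Ab1 (adjusted p 0.103) and 1.76 for Ciita (adjusted p 0.0868). A fit of the 12 untreated tumors alone called 8 of the 17 higher, and DESeq2 called 1. Rfxap alone was called lower, at a log2 fold change of -0.53, a call lost without any of the 4 transplants or primary tumor 1.

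General leukocyte genes were not called by edgeR, but ratios between marker transcripts differed. None of the 12 general leukocyte genes and none of the 20 macrophage and monocyte genes was called by edgeR, with medians of 0.54 and 0.04. Estimates were positive for 10 of the 12 leukocyte genes, so equal leukocyte content is not shown. Their summed CPM ran from 1235 to 2089 in transplants and from 905 to 1651 in primary tumors, with a primary median of 1080. At an unadjusted p under 0.05 there were 2 and 3, and DESeq2 called 2 and 0. In whole tumors, fewer cells of a type and less RNA per cell cannot be told apart. Ratios of marker genes within a library, on which scaling acts only through the pseudocount, were therefore tested by an exact two-sided permutation over all 495 assignments of the 12 libraries to groups of 4 and 8, with adjustment over 14 ratios and a smallest possible p of 0.00404.

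The log2 ratio of Cd8a, which marks cytotoxic T cells, to Cd4, which marks helper T cells and some macrophages, was 1.93, 1.12, 1.04 and 0.44 in transplants and -2.77 to 0.04 in primary tumors with a median of -1.55. All 4 transplants lay above all 8 primary tumors, by 2.58 on average (exact permutation, adjusted p 0.0141). The ratio of Foxp3, the regulator of regulatory T cells, to Cd3e, a part of the T cell receptor complex, was -2.78, -3.16, -3.18 and -1.57 against -1.41 to -0.49 with a median of -0.78, and was lower in every transplant (difference -1.86, exact permutation, adjusted p 0.0141). Foxp3 itself stood at 1.12 to 1.66 CPM in transplants, inside the 0.777 to 3.59 CPM of primary tumors, and its own test gave a log2 fold change of -0.32 with an adjusted p of 0.81. The ratio of Adgre1, which encodes the macrophage antigen F4/80, to the pan-leukocyte gene Ptprc was -0.44, -0.67, -0.44 and -0.32 against -0.17 to 0.92 with a median of 0.81, also without overlap (difference -1.13, exact permutation, adjusted p 0.0141). H2-Ab1, a class II gene of antigen-presenting cells, to Ptprc was 3.41, 3.27, 3.10 and 3.20 against 1.66 to 2.87 with a median of 2.15, higher in every transplant (difference 1.02, exact permutation, adjusted p 0.0141). These 4 ratios passed under the smaller pseudocount and without each transplant in turn.

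**Figure D2:**
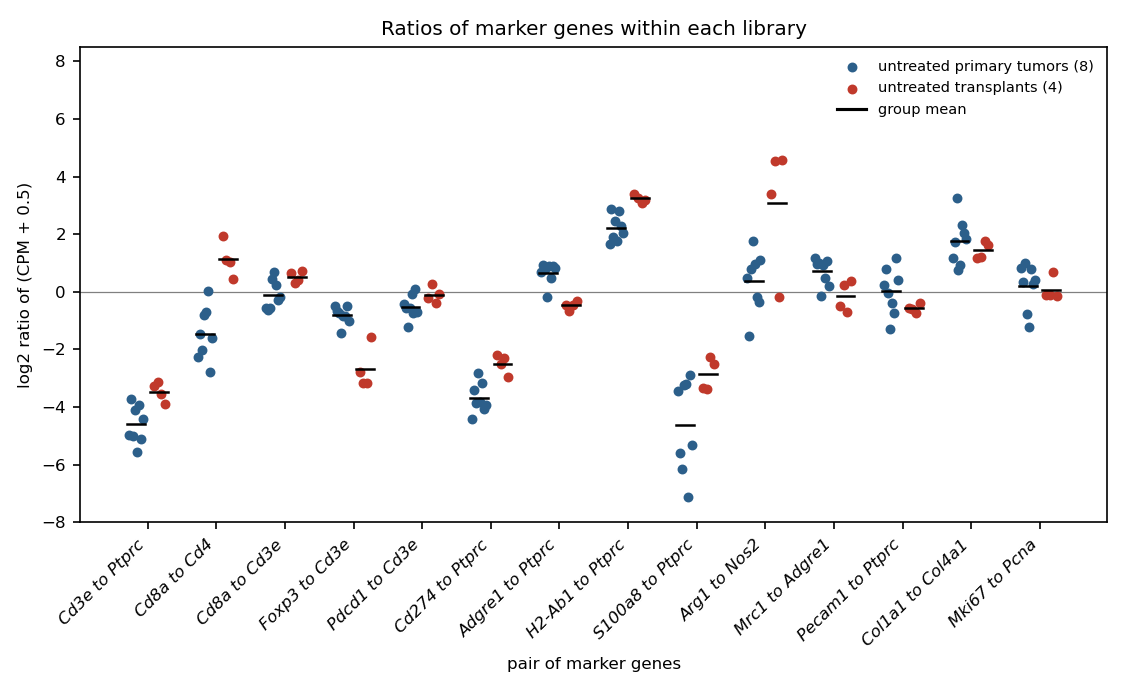
Log2 ratios of 14 pairs of marker genes, computed on CPM + 0.5 within each library, for the 8 untreated primary tumors (blue) and the 4 untreated transplants (red), with black bars at group means. For Cd8a to Cd4 and H2-Ab1 to Ptprc all transplants lie above all primary tumors, and for Foxp3 to Cd3e and Adgre1 to Ptprc all lie below.

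Another 4 of the 14 ratios passed with less margin. Cd3e to Ptprc and Cd274 to Ptprc were higher in transplants, by 1.14 and 1.19 (adjusted p 0.0189 for both, exact permutation), with 3 of 4 transplants above all primary tumors. Both had an adjusted p of 0.0566 without transplant 1 or transplant 2. Arg1 to Nos2 was higher by 2.70 (exact permutation, adjusted p 0.0485) and Mrc1 to Adgre1 lower by 0.85 on the log2 scale, from 0.72 to -0.14 (exact permutation, adjusted p 0.0495). The former passed without transplant 3 alone, at 0.0339, and rose to 0.1234, 0.1018 and 0.1273 without transplants 1, 2 and 4, whereas the latter ran from 0.0727 to 0.1234 without any of the 4 transplants. The ratios of Cd8a to Cd3e, Pdcd1 to Cd3e, S100a8 to Ptprc, Pecam1 to Ptprc, Col1a1 to Col4a1 and Mki67 to Pcna did not pass.

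Single T cell genes followed the ratios in part. Of 16 T cell genes 15 had positive estimates and 7 an unadjusted p under 0.05, and edgeR called Trbc2, a T cell receptor constant region. DESeq2 and limma voom called 2 each, the fit of the 12 untreated tumors alone 6, and the fit without primary tumor 4 called 4. Trbc2 was at 11.8, 14.8, 7.90 and 12.3 CPM in transplants and 0.828 to 6.07 CPM in primary tumors with a median of 2.39. The groups did not overlap (log2 fold change 2.11, SE 0.53, adjusted p 0.0071), and reads of Trbc2 may be shared with its near-identical partner. Of 20 cytotoxic genes Ifng and Cd8a were higher and Klrb1c, the gene for the NK1.1 antigen, was lower, a call lost without any of the 4 transplants. Without primary tumor 4, 7 cytotoxic genes were higher, and without transplant 3 none was by edgeR. Ifng was at 1.17, 0.848, 2.09 and 0.269 CPM against 0.0227 to 0.443 with a median of 0.0688, so that transplant 4 alone overlapped (log2 fold change 2.85, SE 0.83, adjusted p 0.0213), and without transplant 3 its adjusted p was 0.0947. Cd8a was at 16.9, 21, 24.7 and 10.1 CPM against 1.2 to 11 with a median of 2.77, and transplant 4 lay below primary tumor 4 alone (log2 fold change 2.19, SE 0.70, adjusted p 0.0365). The adjusted p of Cd8a rose to between 0.0527 and 0.0901 without transplant 1, 2 or 3 and without primary tumor 1, 2, 3, 5, 7 or 8.

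Checkpoint and costimulatory genes were higher in 5 of 22 cases and lower in 1, with a median of 0.93. The 5 were both ligands of PD-1, Cd274 and Pdcd1lg2, with PD-1 itself (Pdcd1), Havcr2 and Icos, and the lower gene was Entpd1. Pdcd1 was at 9.02, 20.4, 14.2 and 5.58 CPM in transplants and 0.616 to 5.32 CPM in primary tumors with a median of 1.79, just without overlap (log2 fold change 2.33, SE 0.66, adjusted p 0.0178). Pdcd1lg2 was low in all tumors, with 1.17, 1.88, 1.40 and 1.12 CPM against 0.0267 to 0.860 and a median of 0.247, and did not overlap either (log2 fold change 2.17, SE 0.63, adjusted p 0.0211). Without transplant 2 their adjusted p was 0.0847 and 0.0713, and 1 of the 22 genes was called.

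Of 18 genes of macrophage state 2 were higher, Arg1 and Vegfa, and 2 were lower, Lyve1 and Gpnmb. Of the repair-type genes, Arg1, an enzyme of repair-type macrophages, was higher and Lyve1, a receptor of resident perivascular macrophages and lymphatic vessels, was lower. Arg1 stood at 53.3, 123.2, 8.35 and 81 CPM in transplants against 1.43 to 14.9 in primary tumors with a median of 5.31, and transplant 3, the one highest in interferon-γ genes, lay inside the primary range (log2 fold change 3.40, SE 0.78, adjusted p 0.00338). Other genes of that type did not pass and had estimates in both directions. These were -1.44 for Mrc1, -1.03 for Folr2 and -1.46 for Mgl2, but 2.36 for Chil3, 1.09 for Retnla, 0.68 for Cd163 and 0.60 for Clec10a. Gpnmb was not called without any 1 of the 4 transplants or without primary tumor 2. Lyve1 was at 1.10, 2.91, 5.27 and 1.88 CPM against 7.01 to 45.7 with a median of 24.6, below in every transplant (log2 fold change -3.14, SE 0.71, adjusted p 0.00275). Flt4 and Reln, which mark lymphatic endothelium, were lower as well, so that 3 of the 7 lymphatic genes tested were called (1 without transplant 4), while the lymphatic regulator Prox1 was not (log2 fold change -2.22, adjusted p 0.215). None of the 20 blood endothelial genes was called by edgeR, DESeq2 or limma voom, with 2 at an unadjusted p under 0.05, and their median was -0.04. Mature muscle and adipose genes had medians of 1.83 and 1.91 with no member called higher by edgeR, with 0 of 24 muscle genes and 9 of 12 adipose genes at an unadjusted p under 0.05. DESeq2 called 2 adipose genes higher, and both tools called Ucp1 lower. Neutrophil genes had a median of 1.93 with Ltf, Ngp and Mmp8 called higher, 17.6% of the list against 3.88% of all genes. Estimates were positive for 16 of the 17 genes, and Mmp9, at -2.33, was not called. Their summed CPM overlapped between the groups. It ran from 168 to 559 in transplants with a median of 217, and from 140.85 to 2069 in primary tumors with a median of 256. Transplant 3 held the most Ngp, 62.5 CPM against 1.46 to 5.38 in the other 3 transplants, and none of the neutrophil genes was called without it.

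Cytokines of inflammation differed in both directions, 5 higher and 3 lower of 22. Il1rn, which encodes the interleukin-1 receptor antagonist, was at 28.7, 37.3, 60.1 and 24.9 CPM in transplants and 4.6 to 17.5 CPM in primary tumors with a median of 7.06. The groups did not overlap (log2 fold change 2.17, SE 0.37, adjusted p 0.000151). Ptgs2, which makes prostaglandins, was at 206, 371, 328 and 139.3 CPM against 22.7 to 100.1 with a median of 43 (log2 fold change 2.44, SE 0.60, adjusted p 0.00649), also without overlap, but its adjusted p was 0.489 with the library labelled parental tumor, at 876 CPM, among the primary tumors. Lif, Il11 and Tnf were the other 3 higher genes, of which Lif was not called without transplant 1, 2 or 3, Tnf without 1 or 3 and Il11 without 2, and Tslp, Il34 and Csf1, the last a growth factor of macrophages, were lower, and none of these 3 was called without transplant 1, 2 or 3. Cxcl12, a chemokine of stromal cells, was at 167, 217, 246 and 241 CPM against 438 to 699 with a median of 509 and was lower in every transplant (log2 fold change -1.26, SE 0.36, adjusted p 0.0184). Its adjusted p was 0.0751, 0.0663 and 0.0542 without transplant 1, 2 or 4.

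**Figure D3:**
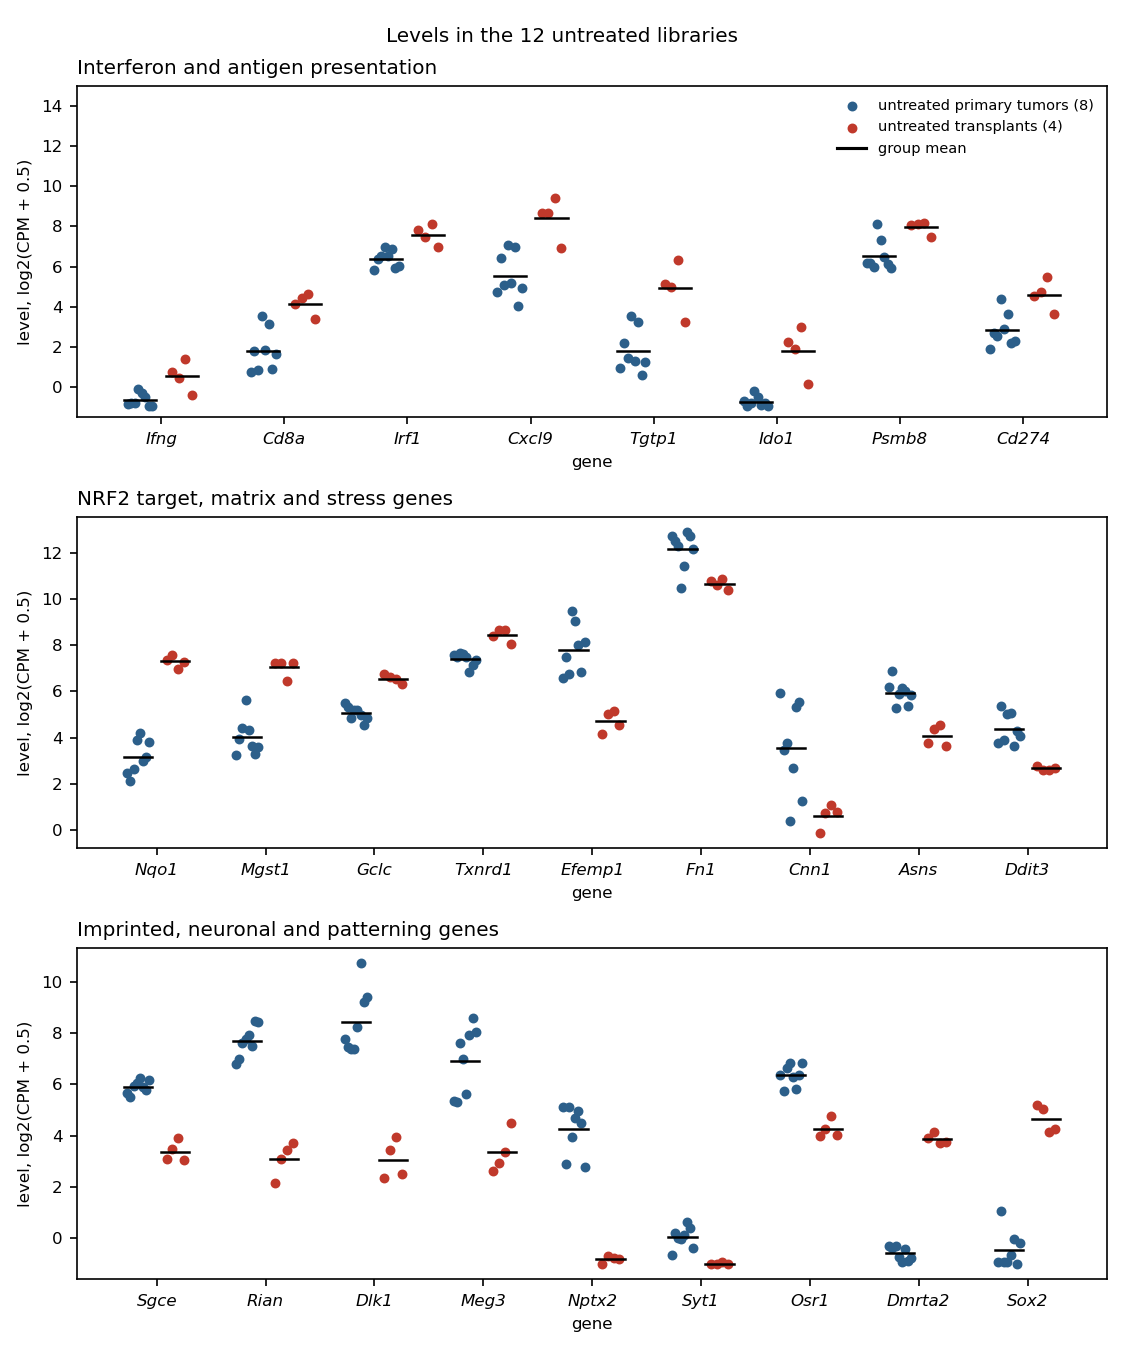
Levels of 26 genes, as log2(CPM + 0.5), in the 8 untreated primary tumors (blue) and the 4 untreated transplants (red), with black bars at group means. Interferon and antigen presentation genes in the top panel are higher on average in transplants, with transplant 4 near or in the primary range for most. For Psmb8, primary tumor 4 lies above most transplants. In the lower panels Nqo1, Efemp1, Asns, Rian, Osr1 and Dmrta2 are separated without overlap.

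Targets of NRF2, the transcription factor that turns on glutathione synthesis, thioredoxin reduction and detoxification under oxidative stress, were the second list with many calls in one direction. Of 37 tested, 15 were higher, none was lower and 22 did not pass, with a median log2 fold change of 0.54. Nqo1, a quinone reductase, was at 167, 193, 126.9 and 153 CPM in transplants and 3.86 to 18 CPM in primary tumors with a median of 7.98. The groups were far apart (log2 fold change 4.07, SE 0.58, adjusted p 1.09e-05). Mgst1, a microsomal glutathione transferase, was at 150, 149, 88.3 and 150 CPM against 9.08 to 49.7 with a median of 13.4, without overlap (log2 fold change 2.87, SE 0.50, adjusted p 0.000186). Gclc, the catalytic subunit of the enzyme that starts glutathione synthesis, was at 106.96, 98.9, 92.8 and 78.6 CPM against 22.6 to 45.3 with a median of 33.4 (log2 fold change 1.49, SE 0.32, adjusted p 0.00161). All transplants again lay above all primary tumors. Txnrd1, which reduces thioredoxin, was at 343, 400.4, 410.1 and 266 CPM against 113.7 to 202 with a median of 180.0 (log2 fold change 1.06, SE 0.23, adjusted p 0.00241).

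The cystine transporter Slc7a11, the glutathione reductase Gsr, the pentose phosphate enzyme G6pdx, the aldehyde oxidase Aox1, the ferritin chains Ftl1 and Fth1 and Abcc4, Cbr3, Gstm1, Osgin1 and Txn1 completed the list of higher genes. Hmox1 and Srxn1, also textbook targets, did not pass, with log2 fold changes of 0.30 (adjusted p 0.637) and 0.14 (adjusted p 0.863). Nfe2l2, which encodes NRF2, and Keap1, which holds it in check, did not pass either, at -0.28 (adjusted p 0.199) and 0.02 (adjusted p 0.928). Summed CPM of the list ran from 10957 to 11547 in transplants and from 5543 to 9979 in primary tumors, a sum to which the ferritins contribute most. Aox3, a relative of Aox1 outside the list, was among the genes with the largest increase, with 29.2, 11.2, 9.07 and 9.95 CPM in transplants and at most 1.75 CPM in primary tumors (log2 fold change 4.23, SE 0.77, adjusted p 0.000326).

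The libraries of line 402230 were above all 8 primary tumors for 10 (labelled parental tumor, 66.7%) and 11 (labelled cell line, 73.3%) of the 15 called genes. For the 37 tested the counts were 18 (48.6%) and 17 (45.9%). In the same order, 25.2% and 18.5% of all genes tested lay above, and 29.2% and 50.4% of all genes called higher. Nqo1 was at 274 CPM in the library labelled parental tumor and at 229 in the library labelled cell line, and Gclc at 242 and 169. When the library labelled parental tumor, itself of the transplanted line, was counted as a ninth primary tumor, 6 of the 15 genes remained called. These were Aox1, Cbr3, Fth1, Ftl1, Gstm1 and Mgst1, and Nqo1 was not among them (edgeR, adjusted p 0.0884). Without 1 transplant the count was 9 to 11, lowest without transplant 2, and with male libraries alone it was 2.

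The antioxidant response element, searched as TGACNNNGC on both strands, was found before the start of 9 of the 31 NRF2 target genes with a window and of 13.8% of all 13123 genes with one. Among the 13 called genes with a window 4 held it, as did 5 of the 18 that were not called. The windows of Mgst1 (chr6:138140377-138140526, + strand) and Txnrd1 (chr10:82859056-82859205, + strand) are given because these are 2 of the 4 called genes with a match, in capitals.
Mgst1: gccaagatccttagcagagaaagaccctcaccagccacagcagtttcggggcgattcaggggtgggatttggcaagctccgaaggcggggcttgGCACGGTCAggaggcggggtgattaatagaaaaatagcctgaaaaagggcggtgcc
Txnrd1: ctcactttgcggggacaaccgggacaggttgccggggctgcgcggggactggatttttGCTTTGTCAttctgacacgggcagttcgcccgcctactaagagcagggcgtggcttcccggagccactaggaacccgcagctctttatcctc

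Genes of the integrated stress response, which ATF4 drives when amino acids are short or proteins misfold, were lower in transplants. Of 21 tested, 7 were lower, none was higher and 14 did not pass, with a median log2 fold change of -0.72. Asns, which makes asparagine, was at 13.1, 19.9, 22.5 and 11.7 CPM in transplants and 38.1 to 116.1 CPM in primary tumors with a median of 61.6, below in every transplant (log2 fold change -1.94, SE 0.32, adjusted p 9.26e-05). Ddit3, which encodes the stress factor CHOP, was at 6.35, 5.61, 5.49 and 5.96 CPM against 11.9 to 41.3 with a median of 17.5 (log2 fold change -1.94, SE 0.31, adjusted p 6.75e-05). Its transplants lay close together and all below the primary tumors. Trib3, a feedback inhibitor of the pathway, was at 3.48, 3.85, 3.08 and 3.05 CPM against 5.71 to 81.6 with a median of 14 (log2 fold change -2.69, SE 0.52, adjusted p 0.000591). These 3 genes passed under all alternatives tried, but the count of the list fell to 4 without transplant 1, 2 or 4 and to 3 with male libraries. Slc7a5, Phgdh, Shmt2 and Herpud1 were also lower, and Atf4 itself did not pass (log2 fold change -0.36, adjusted p 0.301). Gdf15, a secreted stress factor that p53 also induces, was low, at 0.0897 to 0.252 CPM in transplants and 0.696 to 4.72 CPM in primary tumors (log2 fold change -3.50, SE 0.56, adjusted p 7.06e-05), and was the 1 of 24 p53 target genes called by edgeR, where limma voom called 2 and the fit with muscle RNA as a covariate 4.
Asns: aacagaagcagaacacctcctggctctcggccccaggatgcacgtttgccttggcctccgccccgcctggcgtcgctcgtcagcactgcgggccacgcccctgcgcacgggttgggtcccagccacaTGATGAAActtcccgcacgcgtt
The Asns window (chr6:7693210-7693359, - strand) is shown for its match, in capitals, to TGATGNAA, the C/EBP-ATF response element, which 6 of 20 list genes with a window held against 2.64% of all. Of the 6 called genes with a window 2 held it, and of the 14 others 4.

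Extracellular matrix and contractile genes were called lower more often than higher in transplants, as were all genes tested (6.41% lower and 3.88% higher). Of 46 matrix glycoprotein and proteoglycan genes 8 were lower (17.4%) and none was higher, with a median of -1.01. Of 30 interstitial collagen genes 3 were lower (10.0%, near the share of all genes), Col8a1, Col15a1 and Col1a2, with a median of -0.68. Of 23 genes that process and crosslink collagen 5 were lower (21.7%) and 1, Tgm2, was higher. Of 21 basement membrane genes Col4a5, Col4a6 and Hspg2 were lower and Lamb3 was higher, and the lower 3 were not called without any 1 of the 4 transplants, nor Lamb3 without transplant 1 or Tgm2 without transplant 2 or 3. Of 32 matrix proteases and inhibitors Mmp17, Timp2 and Adam19 were lower (9.38%) and Mmp8 and the protease inhibitor gene Slpi were higher (6.25%). Both shares were near those of all genes. Timp2 and Mmp8 were not called without any 1 of the 4 transplants, nor Adam19 without transplant 2, 3 or 4. Without 1 transplant the matrix glycoprotein count fell to 3 or 4, and the collagen count to 1 without transplant 1, 2 or 4. Efemp1, a fibulin of elastic matrix, was at 17.4, 32.4, 35 and 22.7 CPM in transplants and 94.3 to 715 CPM in primary tumors with a median of 217, below in every transplant (log2 fold change -3.41, SE 0.59, adjusted p 0.000176). Loxl3, which crosslinks collagen, was at 93.6, 71.1, 86.1 and 72.4 CPM against 142.7 to 640.4 with a median of 291, also without overlap (log2 fold change -1.99, SE 0.43, adjusted p 0.00205). Fibronectin (Fn1) was at 1757, 1570.4, 1892 and 1356 CPM against 1438 to 7714 with a median of 5459, and 1 primary tumor lay within the transplant range (log2 fold change -1.65, SE 0.49, adjusted p 0.0259). Its adjusted p was between 0.0571 and 0.0996 without any of the 4 transplants. Col1a1, the main collagen of the tumors, did not pass (log2 fold change -1.33, SE 0.67, adjusted p 0.201).

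The smooth muscle genes Tagln, Cnn1, Acta2 and Myl9 were the 4 of 22 contractile genes called, all lower. Tagln was at 17.4, 22.8, 23.9 and 49.5 CPM in transplants and 40.7 to 483 CPM in primary tumors with a median of 381, and transplant 4 exceeded 1 primary tumor (log2 fold change -3.46, SE 0.74, adjusted p 0.0016). Acta2 and Myl9 lost their calls without any of the 4 transplants, so that 2 of the 22 remained. Of 20 genes that YAP and TAZ induce, Ccn2, Axl and Crim1 were lower, a count of 1 without transplant 2 or 4. Tgfbr2, a receptor of TGF-β, which induces matrix and contractile genes, was at 315, 269, 341 and 245 CPM against 418 to 785 with a median of 518, below in every transplant (log2 fold change -0.91, SE 0.19, adjusted p 0.00159), and passed under all alternatives tried. Cspg4, which marks pericytes, was lower too (log2 fold change -2.58, adjusted p 0.00499), as 1 of 9 pericyte genes. The part of vessel wall cells in these values was not tested.

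Growth factor genes were called in both directions. Areg and Ereg, both ligands of the epidermal growth factor receptor, were higher, and Egfr, the receptor, was lower. Ereg was at 115.6, 218, 132.3 and 80.4 CPM in transplants and 26.5 to 55.9 CPM in primary tumors with a median of 28.3 (log2 fold change 1.96, SE 0.39, adjusted p 0.000753). Areg was low, at 2.67, 4.49, 1.24 and 3.03 CPM against 0.160 to 0.886 with a median of 0.357 (log2 fold change 2.79, SE 0.55, adjusted p 0.000769). Egfr was at 22.1, 24.9, 30.8 and 22.1 CPM against 48 to 127.8 with a median of 82.9 (log2 fold change -1.69, SE 0.31, adjusted p 0.000345). None of these 3 genes overlapped between the groups. The ligand genes Hbegf and Tgfa did not pass, at -0.73 (adjusted p 0.181) and -0.15 (adjusted p 0.869). With the library labelled parental tumor among the primary tumors the adjusted p was 0.0515 for Ereg and 0.0732 for Areg. Over 49 growth factors and receptors 8 were higher and 7 lower. Pthlh, which encodes parathyroid hormone-related protein, was at 111.9, 119.04, 70.7 and 55.4 CPM against 2.79 to 16.2 with a median of 6.68 (log2 fold change 3.55, SE 0.57, adjusted p 7.03e-05). Angpt1 and Igfbp4 were the other higher genes without overlap that kept their calls under all alternatives tried, at log2 fold changes of 1.68 and 1.60, and Kitl, the ligand of Kit, was lower at -1.60. Kit is a receptor of mast cells, and the 9 mast cell genes had a median of -1.42 with all 9 estimates below 0 and none called by edgeR.

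Inhba, which encodes a subunit of activin, was higher at 576, 571, 399 and 284 CPM against 59.4 to 160 with a median of 108.98 (log2 fold change 2.05, SE 0.40, adjusted p 0.000699), and no value overlapped. The immediate early receptors Nr4a1, Nr4a2 and Nr4a3 were higher while Jun, Klf6 and Myc were lower, 3 and 3 of 22 genes of that list. Nr4a1 was at 160.4, 313, 142.8 and 75.9 CPM against 10.4 to 38.9 with a median of 15.8 (log2 fold change 3.14, SE 0.52, adjusted p 9.23e-05). Nr4a3 was at 45, 55.1, 33.6 and 37.3 CPM against 1.27 to 20.6 with a median of 3.35 (log2 fold change 2.90, SE 0.54, adjusted p 0.000366). Both were higher in every transplant, and both are also known as genes of T cells with persistent receptor signals, as well as of stromal cells; which cells made them was not tested. The 3 lower genes were not called without transplant 1, 2 or 4, nor was Nr4a2 without transplant 2. Cell cycle genes gave 1 call, Rrm2, of 24, with a median of -0.09.

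Imprinted genes were called lower more often than higher in transplants. Of 47 tested, 14 were lower (29.8%), 1 was higher (2.13%) and 32 did not pass, with a median log2 fold change of -0.64. Of all genes tested 6.41% were lower and 3.88% higher. The 14 lower genes are not 14 separate loci. Dlk1, Meg3, Rtl1, Rian and Mirg lie in 1 domain, described below, and Sgce and Peg10 are neighbours. Sgce, a maternally imprinted sarcoglycan gene, was at 7.95, 10.5, 14.6 and 7.74 CPM in transplants and 44.4 to 74.6 CPM in primary tumors with a median of 59.8. The groups were far apart and both were narrow (log2 fold change -2.56, SE 0.26, adjusted p 9.58e-09). Peg10, its neighbour on chromosome 6, was at 6.87, 7.38, 14.5 and 6.43 CPM against 18.9 to 98 with a median of 48.9 (log2 fold change -2.68, SE 0.61, adjusted p 0.00329). Other lower genes lay apart from these, such as Sfmbt2 (log2 fold change -2.69), Plagl1 (-2.88), Ndn (-3.53) and Igf2r (-1.72). The growth regulator H19 and its partner Igf2 did not pass, with log2 fold changes of 0.07 (adjusted p 0.968) and -1.12 (adjusted p 0.458). The only higher gene was Nnat (log2 fold change 2.58, adjusted p 0.0434), which lost its call under 15 of 23 alternatives, among them each transplant left out in turn.

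On chromosome 12 the lower genes formed the longest run of consecutive called genes among those tested, 9 genes from Begain to Mirg over 717.3 kb (chr12:109032187-109749460, GRCm38). This is the Dlk1-Dio3 imprinted domain and its neighbour Begain. Rian, a maternally expressed noncoding RNA of the domain, was at 3.94, 7.97, 10.4 and 12.6 CPM in transplants and 110.5 to 354 CPM in primary tumors with a median of 206. No value came near the other group (log2 fold change -4.66, SE 0.58, adjusted p 8.78e-07). Mirg, the noncoding RNA at the far end of the run, was at 0.549, 0.527, 0.383 and 0.919 CPM against 3.31 to 18 with a median of 7.34 (log2 fold change -3.88, SE 0.58, adjusted p 2.13e-05). Rtl1, a paternally expressed gene, had no count in any transplant and 173 counts over the 8 primary tumors, and was at least 30.0-fold lower against a floor of 3 counts over the 4 transplants. Its reads overlap antisense transcripts of the domain. Genes of both parental origins were therefore lower. Dio3, at the other end, did not pass and its estimate was positive (log2 fold change 2.17, SE 0.88, adjusted p 0.105). In the library labelled parental tumor Dlk1 was at 47.4 CPM and Rian at 3.02, and in the library labelled cell line they were at 21.5 and 79.9.

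**Figure D4:**
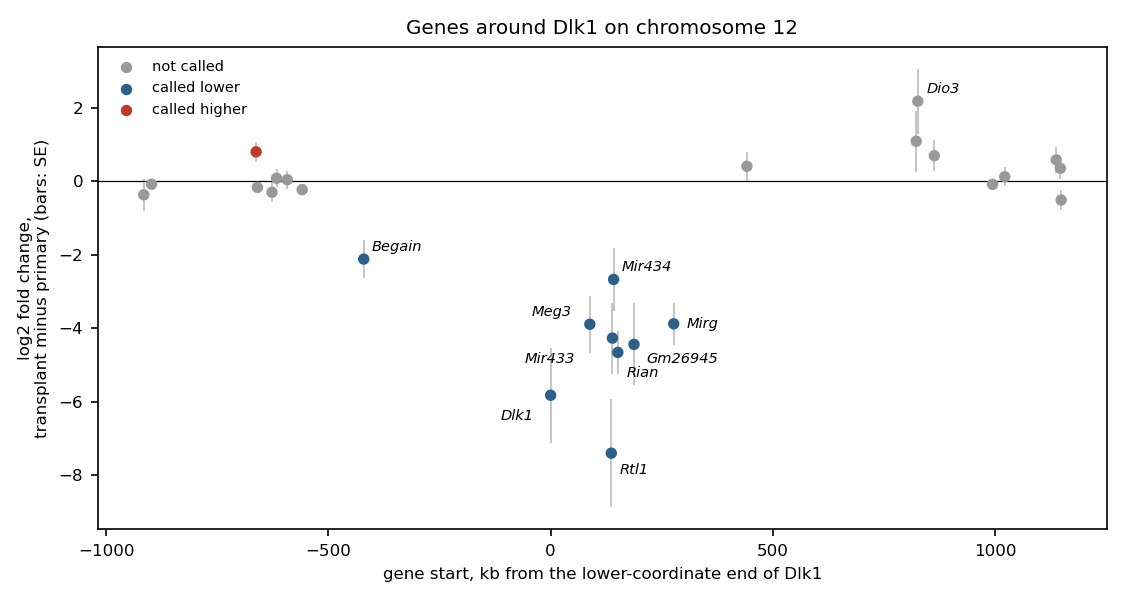
Log2 fold change, transplant minus primary with its SE, of each tested gene around Dlk1 on chromosome 12, against the position of the gene's lower-coordinate end in kb from that of Dlk1. The 9 genes from Begain to Mirg are called lower (blue), while Dio3 and most genes outside the run are not called (grey), and Gm34220 to the left is called higher (red).

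A further 8 runs of at least 4 consecutive called genes were found, 4 of them lower and 4 higher. One of the higher runs held the lipoxygenase genes Alox12, Alox12e and Alox15 with Gm12312 (chr11:70241457-70358781), and another Hoxd8, Hoxd3, Gm28230 and Haglr of the HoxD cluster (chr2:74704615-74762896). Exons of Hoxd3 and Haglr overlap genes on the opposite strand. Alox15, which makes lipid mediators, was at 1.36, 9.37, 1.98 and 5.56 CPM against 0.0576 to 0.417 with a median of 0.243 (log2 fold change 4.27, SE 1.06, adjusted p 0.00669), and no value overlapped. Hoxd8 was at 85.4, 70.4, 58.2 and 65.9 CPM against 12.5 to 48.9 with a median of 30, without overlap (log2 fold change 1.21, SE 0.33, adjusted p 0.0144), and its adjusted p was 0.0613 without transplant 1. Summed CPM of the 36 Hox genes tested ran from 285 to 373 in transplants and from 155 to 279.7 in primary tumors, and 2 Hox genes were called higher by edgeR and 10 by limma voom. Hoxc13 was called lower by edgeR (log2 fold change -7.20, adjusted p 0.0264), a call lost without any 1 of the 4 transplants. On the X chromosome 73 of 624 genes were lower (11.7%) and 15 higher (2.40%), against 6.23% and 3.93% of the other genes. With male libraries alone 27 of 623 X-linked genes were lower (4.33%) against 1.44% of the others. Over the autosomes the share of lower genes ran from 3.43% to 10.8%.

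Transcription factors of development were among the largest differences. Dmrta2 was at 14.5, 17.4, 12.8 and 13 CPM in transplants and 0.0288 to 0.32 CPM in primary tumors with a median of 0.174 (log2 fold change 6.32, SE 0.70, adjusted p 5.45e-08). Dlx1 was at 13, 15.4, 14.6 and 11.7 CPM against 0 to 0.245 with a median of 0.0832 (log2 fold change 7.04, SE 1.33, adjusted p 0.000457). Sox2, a factor of stem and neural progenitor cells, was at 36, 32.1, 17.2 and 18.7 CPM against 0 to 1.57 with a median of 0.0853 (log2 fold change 6.25, SE 1.18, adjusted p 0.000452). All 3 factors were at 1.57 CPM or less in every primary tumor and at 11.7 CPM or more in every transplant. The library labelled parental tumor held Dlx1 at 55.6 CPM and Sox2 at 21.7, and the library labelled cell line held them at 0.130 and 32.4. With the library labelled parental tumor counted among the primary tumors, the adjusted p was 0.672 for Dlx1 and 0.0842 for Sox2. Osr1, Emx2 and Tbx15, factors of limb and trunk mesenchyme, were lower. Osr1 was at 15.2, 18.8, 26.9 and 15.8 CPM against 53.3 to 114.4 with a median of 81.8 (log2 fold change -2.14, SE 0.33, adjusted p 4.21e-05), and Tbx15 at 30.8, 33.5, 48.1 and 35.4 CPM against 80.1 to 171 with a median of 114.4 (log2 fold change -1.66, SE 0.28, adjusted p 0.000109). Neither overlapped. Over 61 mesenchymal transcription factors 4 were higher (6.56%) and 5 lower (8.2%), near the shares of all genes, 3.88% and 6.41%. Dmrta2, Dlx1 and Sox2 are not in that list.

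Genes named for neurons made up several of the largest decreases. Of 22 in that list 6 were lower and 1, Syn1, was higher. Nptx2, a synaptic pentraxin, was at 0, 0.115, 0.0901 and 0.0673 CPM in transplants and 6.32 to 34.4 CPM in primary tumors with a median of 23.7 (log2 fold change -8.26, SE 1.15, adjusted p 7.33e-06), the largest decrease among the genes named by the rule. The adhesion genes Pcdh10, Negr1 and Robo2 were also near 0 in transplants, at no more than 0.383 CPM, and at 1.04 CPM or more in every primary tumor, with log2 fold changes of -6.48, -5.94 and -5.51. Syt1, which triggers vesicle release, had 1 count over the 4 transplants and 197 over the 8 primary tumors (log2 fold change -6.04, SE 1.06, adjusted p 0.0002). Syt7, of the same family, went the other way, at 12.8, 20, 18.4 and 7.22 CPM against 0.374 to 2.72 with a median of 0.911 (log2 fold change 3.74, SE 0.53, adjusted p 9.75e-06). The tight junction gene Cldn1, at 1.40 to 2.71 CPM in transplants and 15.2 to 87.3 CPM in primary tumors (log2 fold change -4.11, SE 0.64, adjusted p 4.21e-05), and the Hedgehog co-receptor Boc, at 1.36 to 7.86 against 11 to 66.8 CPM (log2 fold change -3.22, SE 0.58, adjusted p 0.000259), were lower in every transplant. Schwann cell genes were called in 1 of 14 cases, Pmp22 (not called without any of the 4 transplants), with a median of -0.14.

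Large estimates did not always pass. Among genes with a mean log2 CPM of at least 2, the 10 with the largest differences that missed the threshold were Rpl39l, Mmrn1 and Crispld1 with negative and Lrtm1, Cfd, Myf6, Aldh1a2, Retnlg, Ctxn3 and Ppp1r27 with positive estimates, from -3.95 to 3.75 on the log2 scale. Their adjusted p ran from 0.052 for Retnlg to 0.117 for Ppp1r27. Several are genes of muscle or fat, such as Myf6, Ctxn3 and Ppp1r27 of muscle fibers and Cfd of adipocytes. Muscle content differed between transplants as given above, and summed CPM of the 12 adipose genes ran from 54.2 to 329 in transplants.

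Levels were more uniform among transplants than among primary tumors. The SD of log2(CPM + 0.5) was larger in the 8 primary tumors for 72.7% of the called genes and for 73.2% of all genes, so the called genes did not stand apart. The median SD over all genes was 0.23 in transplants and 0.34 in primary tumors.

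The libraries of line 402230 were set beside the primary tumors for the called genes without overlap. Of the 376 genes called higher without overlap, the library labelled cell line lay above all 8 primary tumors for 228 (60.6%), the library labelled parental tumor for 36.7% and both for 33.0%, against 18.5%, 25.2% and 8.32% of all genes tested. For 31.1% of the same genes the library labelled parental tumor lay below all primary tumors, opposite to the transplants, and for 3.99% the library labelled cell line did. Of the 674 called lower without overlap, 358 (53.1%), 424 (62.9%) and 224 (33.2%) lay below all primary tumors in the same order, against 16.9%, 31.4% and 9.23%. These are counts over single libraries, with no test.

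The same model difference was examined in tumors outside the untreated contrast, 4 transplants and 8 primary tumors given anti-PD-1 at 0 Gy. In these, 1421 genes (7.35%) were called, 3.39% higher and 3.96% lower, and 1010 of them were among the 1988 called in untreated tumors, all with the same sign, which is 50.8% of the untreated and 71.1% of the anti-PD-1 calls. Both contrasts came from the same fit of 48 tumors and share its estimate of the spread of each gene. Their calls are therefore not independent of each other. In all, 1979 of the 1988 genes had the same sign in both contrasts, against 78.2% of the 17339 genes not called. The interferon-γ list had 20 of 26 genes higher under anti-PD-1, the NRF2 list 13 of 37, and the MHC class I list 10 of 22. The imprinted list had 13 of 47 genes lower and the ATF4 list 6 of 21. Dmrta2, Nqo1, Rian and Sgce had log2 fold changes of 6.81, 3.87, -4.28 and -2.16 under anti-PD-1, close to their values in untreated tumors, and Dlx1 had 3.51 against 7.04 there. The test of the difference between both contrasts called 0 of 19327 genes by edgeR. At an unadjusted p under 0.05 there were 147, fewer than that threshold gives when nothing differs. The test was thus conservative here, and its 0 calls do not show that the contrasts were equal. These tumors came from the same line, so they repeat the comparison with other mice and not with another transplanted tumor.

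**Figure D5:**
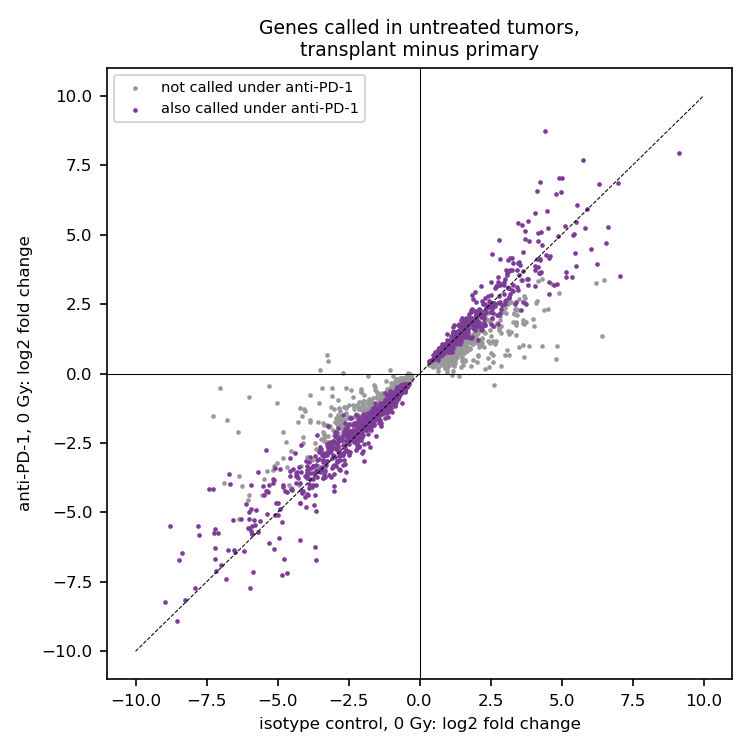
Log2 fold change, transplant minus primary, of the 1988 genes called in untreated tumors (x axis) against the same difference in tumors given anti-PD-1 at 0 Gy (y axis), with the line of equality dashed. The 1010 genes also called under anti-PD-1 are purple and the others grey, and 9 genes lie on opposite sides of 0.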

How the data were processed

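Bulk RNA sequencing of 12 untreated tumors was compared within a series of 50 libraries, grouped by their labels. The deposited values were raw whole-number counts per gene, in 1 table for the series. From the study's description, poly(A) RNA was captured and stranded libraries were prepared; the authors trimmed reads (Trimmomatic 0.36), mapped them to mm10 with STAR and counted them by the HTSeq method over GENCODE genes. The strand setting was not given in the sources used here, and 520 of the called genes have an exon that overlaps a gene on the opposite strand, so reads of such pairs may not be told apart.

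Of 37469 identifiers 37408 matched a GENCODE symbol without the version suffix. Genes were filtered with filterByExpr, scaled with TMM and fitted in edgeR 4.0.16 (R 4.3.3) as 1 quasi-likelihood model over the 48 tumors of 8 groups, with no covariate and with two-sided p-values. The SE of a log2 fold change is its size divided by the square root of the quasi-likelihood F statistic. Alternatives used DESeq2 1.42.0 and limma 3.58.1 (voom), and the fit was tested on simulated counts. Replicate numbers follow accession order and pair nothing. The 34 pairs of libraries within the untreated groups differed by a chi-square of at least 110.2 per degree of freedom, so none was counted as a duplicate. Marker ratios used CPM + 0.5. P-values measure the spread between these tumors.

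The comparison, gene lists, ratios and rule for named genes were chosen with earlier results of these data known. The rule named all list and ratio genes, genes of the runs, Trp53, sex-linked genes, the 15 protein-coding genes per direction with the largest log2 fold change among those called without overlap and expressed at a mean log2 CPM of 2 or more, and, at the same mean level, the 10 largest differences that missed the threshold.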

Additional observations from a re-analysis of the deposited data

Results flagged for a closer look

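Each group of 4 or 8 tumors was examined for a library far from the rest of its group, for the total count, the named genes and the marker ratios. Of 110 such groups 8 had one, where chance gives about 1 in 20. The total count of transplant 1, 39637928, lay apart from the other 3 transplants, whose median was 44152726. Transplant 1 was also lowest in Lrtm1, at 0.215 CPM against a median of 5.25 CPM in the others, and in Retnlg, at 1.48 against 6.07 CPM. Transplant 3 was highest in Pcdh10, at 0.113 CPM, a level still below every primary tumor, and in the log2 ratio of Mki67 to Pcna, at 0.69 against -0.12. Among primary tumors, number 7 held Thsd4 at 80.8 CPM against a median of 2.35 in the others, and number 2 held Slc7a3 at 33.2 against 4.46 CPM. Primary tumor 4 had the lowest log2 ratio of Adgre1 to Ptprc, -0.17 against 0.83, and without it the interferon-γ list had 19 calls and the MHC class I list 12.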

How the results depend on the processing

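Of the 1988 genes called, 0 were called with the other sign under any of the 23 alternatives. DESeq2 called 2630 genes and limma voom 1780, of which 46.9% were higher against 37.7% in edgeR. Leaving out 1 library moved the count from 1009 to 2248 genes (467 to 895 higher, 542 to 1353 lower), lowest without transplant 4 and highest without primary tumor 4. A further 2 alternatives were chosen after seeing the data: male libraries alone gave 444 genes (145 higher, 299 lower), and the fit without transplants 1 and 3, which had the least and the most muscle RNA, gave 533 (248 higher, 285 lower). The number of marker ratios that passed ran from 4 to 7 without 1 transplant, against 8. Of 245 called genes followed singly, 47 passed under all alternatives and 52.2% lost their call in at least 1 fit that left out a library. Signs turned for 2 of them: Itga3 had a log2 fold change of -0.24 with the library labelled parental tumor among the primary tumors, and Slc4a1, a red cell gene, had -1.10 without transplant 3 and -1.10 without transplants 1 and 3, while its value without any other 1 library reached 4.68. The causes were not tested. No paired analysis was possible because the labels give no replicate numbers shared between the groups. With 4 transplants from 1 line, genes of low count or wide spread may differ without passing.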

Other observations

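Lists not described above included the following. Wnt pathway genes were called in both directions, with Wnt11, Fzd1 and Rspo1 higher and Wnt2b, Fzd8 and Lgr4 lower of 42 tested, 7.14% in each direction against 3.88% higher and 6.41% lower of all genes. Each direction had 1 call without transplant 1 or 2, and the lower direction also without transplant 4. Of 26 glycolysis and hypoxia genes 3 were higher (11.5%), the hexokinase gene Hk2, the lactate exporter gene Slc16a3 and Vegfa, and none was lower. The list of 17 cyclin and CDK inhibitor genes also holds Cdk4, Cdk6, Rb1, Rbl1, Rbl2, Myc and Mycn. Of the 17, 5 were lower (29.4%), Ccnd2, Cdkn1c, Cdkn2a, Cdkn2b and Myc, and Cdkn1b was higher (5.88%). Among the lower genes were both Cdkn2a and Cdkn2b, which encode inhibitors of the cell cycle at one locus. Without transplant 2 or transplant 4 none of the 5 lower genes passed. Of 23 sterol and fatty acid synthesis genes Hmgcs1 and Mvk were lower, and 22 of the 23 estimates were below 0, with a median log2 fold change of -0.42 against -0.01 for all genes. Neither gene was called without any 1 of the 4 transplants.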
